A study of Schizosaccharomyces pombe with 4 samples.

Results

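The 336 non-coding RNA genes described here lie antisense inside another gene of the fission yeast Schizosaccharomyces pombe. They were taken by position, from the coordinates of the deposited count table (build ASM294v2). Each has an identifier that starts with SPNCRNA, has at least 90% of its span inside 1 gene of the opposite strand, here called its host, and overlaps no gene of another kind on its own strand. They make up 336 of the 1541 SPNCRNA genes and 336 of the 7049 genes in the table. The rule uses positions alone.

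RNA was sequenced from 2 delta4dus libraries and 2 wild-type libraries. The delta4dus strain carries deletions of dus1, dus2, dus3 and dus4, the genes for the dihydrouridine synthases, which turn uridine in RNA into dihydrouridine. Cells of both genotypes were growing in YES, a rich medium, at 32 °C, and total RNA was depleted of ribosomal RNA and sequenced with its strand kept. The labels do not say whether replicates came from separate cultures, so every p-value here rests on a spread between libraries that may be technical.

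Antisense RNA is copied from the strand opposite to a gene's own, so part of it is complementary to the gene's messenger RNA. In fission yeast such RNA is made widely, often at a low level, and much of it is removed by the nuclear exosome, RNA interference and chromatin factors. Antisense transcripts are known at many genes that act in mating and meiosis, where some of them lower the level of the sense RNA.

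The 336 antisense RNAs sat in 318 hosts, of which 317 were protein-coding in the RefSeq annotation and 1 was not matched to it. A pair of the RNAs shared a host in 18 cases, so those 36 RNAs are not independent of each other. There were 151 on chromosome I, 124 on chromosome II and 61 on chromosome III. Their spans ran from 76 to 4984 bases with a median of 1223.5, and the median RNA covered 54.4% of its host. In all, 221 lay wholly inside the host, 33 also overlapped a second gene on the opposite strand, and 44 overlapped another SPNCRNA gene on their own strand and may share reads with it.

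The table of the newer build, ASM294v3, allowed 315 pairs of antisense RNA and host to be set against coding sequence by identifier. Of these 315 antisense RNAs, 172 covered the host's start codon, 147 its stop codon and 80 both. Another 26 lay wholly opposite coding sequence and 35 opposite none, and the median RNA had 75.4% of its bases opposite coding sequence. Host spans were revised between the builds: 235 of the 315 pairs still had at least 90% of the antisense RNA inside the host in ASM294v3.

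The following sequences show what being antisense means for 6 of the RNAs the results turn on. Each is the antisense strand, 5′ to 3′, opposite the first 60 coding bases of the host. The sequence comes from RefSeq ASM294v3, and the capitals mark the complement of the host's start codon. The intervals are chrI:4817284-4817343 (plus strand) for SPNCRNA.1026, chrII:608171-608230 (minus) for SPNCRNA.1374, chrII:1215862-1215921 (plus) for SPNCRNA.1421, chrII:2125195-2125254 (plus) for SPNCRNA.1488, chrII:2750915-2750974 (minus) for SPNCRNA.1546 and chrII:4428560-4428619 (plus) for SPNCRNA.1690.
SPNCRNA.1026 in fus1: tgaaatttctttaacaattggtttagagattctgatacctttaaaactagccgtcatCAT
SPNCRNA.1374 in cta3: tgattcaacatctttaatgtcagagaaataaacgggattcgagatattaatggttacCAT
SPNCRNA.1421 in ppk31: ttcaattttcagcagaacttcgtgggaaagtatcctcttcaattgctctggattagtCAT
SPNCRNA.1488 in SPBC23G7.13c: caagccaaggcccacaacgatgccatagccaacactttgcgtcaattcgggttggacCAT
SPNCRNA.1546 in sfc3: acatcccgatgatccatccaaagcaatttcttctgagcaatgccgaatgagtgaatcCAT
SPNCRNA.1690 in cao2: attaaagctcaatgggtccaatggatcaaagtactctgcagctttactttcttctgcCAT

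The sense strand of the same 60 bases of fus1, with its start codon in capitals, is shown so that the pairing can be read directly. SPNCRNA.1206, the antisense RNA of nup211, lies wholly opposite coding sequence and reaches neither the start nor the stop codon, so its first 60 bases are shown instead (chrIII:1570698-1570757, minus strand, ASM294v3), with no base singled out.
fus1, sense strand: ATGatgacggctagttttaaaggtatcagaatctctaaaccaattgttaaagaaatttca
SPNCRNA.1206 in nup211, first bases: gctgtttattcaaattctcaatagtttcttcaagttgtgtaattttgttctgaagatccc

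Over the antisense RNAs matched to ASM294v3, the median base composition was 31.4% T (uridine in the RNA) and 36.7% G plus C.

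The libraries held 435405178 and 495098038 counts in delta4dus, against 289767027 and 264948323 counts in wild-type. Ribosomal RNA took 86.4% and 90.7% of the counts in delta4dus, against 84.7% and 84.8% in wild-type, which left 40203853 to 59273688 counts per library for other genes. The second delta4dus library stands apart in this share and in its TMM scaling factor, which was 0.662 against 1.09 to 1.23 in the other 3. Normalised counts below were scaled by these factors and the library totals. The deleted genes were checked first: dus1 had 135 and 186 normalised counts in delta4dus, against 2246 and 2372 in wild-type. Reads at dus2 were 291 and 307 in delta4dus, against 2384 and 2241 in wild-type. Reads at dus3 were still 1308 and 1362 in delta4dus, against 3954 and 3929 in wild-type. All 3 fell past the threshold of edgeR's quasi-likelihood test after Benjamini-Hochberg adjustment (adjusted p = 0.00418 for dus1, 0.000224 for dus2 and 0.000818 for dus3). Reads at dus4 were 314 and 156 in delta4dus, against 541 and 571 in wild-type, and did not pass (adjusted p = 0.626).

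Most antisense RNAs were far less abundant than the gene that contained them. Levels were compared per base of span, as normalised reads per kb averaged over the 4 libraries. The median antisense RNA had 69.6 reads per kb and the median of the 318 hosts was 764, and the median antisense level was 9.09% of the host's. Among the 336, 53 were below 1% of the host, 121 were between 1% and 10%, 122 were between 10% and 100%, and 40 were above the host. Of those 40, 35 were above the host in every library, 24 were at least 2 times and 12 at least 5 times the host.

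**Figure D1:**
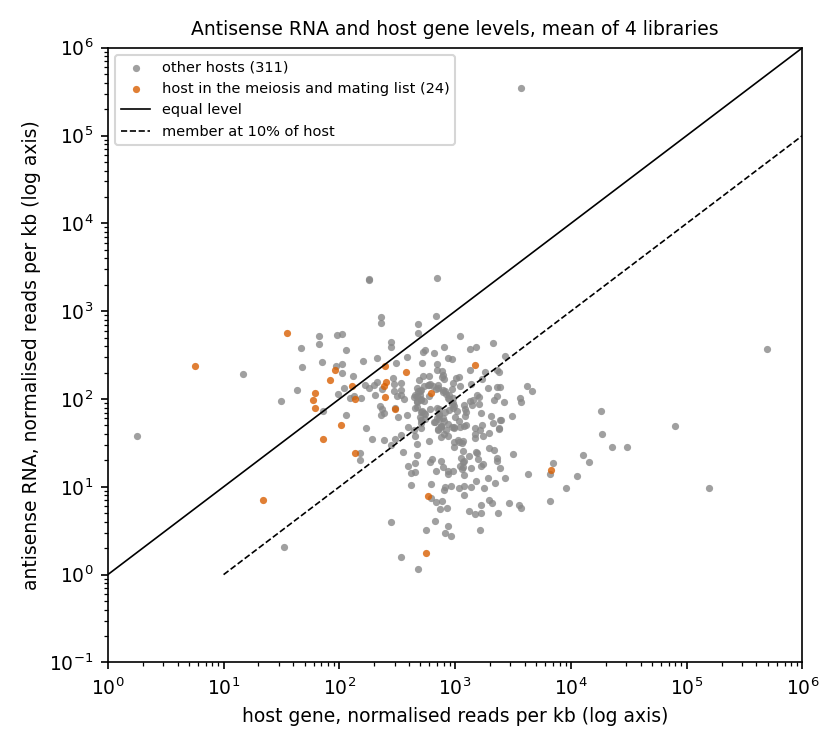
Each point is 1 antisense RNA, with the host's level on the x axis and the antisense level on the y axis, both in normalised reads per kb on log axes and averaged over the 4 libraries. The 40 points above the solid line are antisense RNAs more abundant per base than their host, and 8 of them sit in hosts of the meiosis and mating list (orange). The antisense RNA at 0 in every library is not drawn.

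Antisense RNAs were no more abundant in the more abundant hosts. The pairs were ranked by host level and cut into 4 equal groups of 84: the median host had 168 reads per kb in the lowest group and 2255 in the highest. The median antisense RNA had 125 reads per kb in the lowest hosts and 38.5 in the highest. Across the 335 pairs with antisense reads, Spearman's correlation of the 2 levels was -0.35, given as a description, since both come from the same libraries.

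In bulk cultures, more RNA per cell and more cells that make it cannot be told apart. The antisense RNA with the highest level was SPNCRNA.514 (II, 2145712 to 2145812, minus strand), a span of 101 bases inside rrb1 (SPBC1711.07), a gene for a WD repeat protein. It had 26344 and 48561 normalised counts in delta4dus, against 16874 and 47298 in wild-type. The replicates of each genotype differed more than the genotypes did, and the groups overlapped. Its reads per kb were 93.7 times those of rrb1, but it overlaps SPNCRNA.1490 on its own strand, so the reads may belong to either.

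Next in level were SPNCRNA.123 in snf22 (2412 reads per kb), a gene for the ATPase of a chromatin remodeler, and SPNCRNA.74 and SPNCRNA.73 in eta2 (2302 and 2279 reads per kb), a gene for an RNA polymerase I termination factor. SPNCRNA.73 and SPNCRNA.74 overlap each other, and they had 12.7 and 12.8 times the level of eta2. SPNCRNA.74 had 1855 and 1785 normalised counts in delta4dus, against 1826 and 1743 in wild-type, and its groups overlapped. SPNCRNA.123 is no longer inside snf22 in ASM294v3, where 0% of it falls in the revised span.

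Some hosts had few sense reads. The gene mug27 (SPCC417.06c) encodes a protein kinase of sporulation and had 6.89 and 8.90 normalised counts in delta4dus, against 13.3 and 24.5 in wild-type. Its antisense RNA SPNCRNA.583 (III, 1676911 to 1679347, plus strand) had 617 and 610 normalised counts in delta4dus, against 592 and 515 in wild-type, which is 41.9 times the level of mug27 per base. SPNCRNA.583 overlaps SPNCRNA.1217 on its own strand and a second gene on the other, and its log2 fold change of 0.15 (SE 0.113) did not pass. Its groups did not overlap, with delta4dus higher, and those of mug27 did not overlap, with delta4dus lower.

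SPNCRNA.1488 was 13.0 times as abundant per base as SPBC23G7.13c, a urea transporter gene, with 429 and 447 normalised counts in delta4dus and 401 and 357 in wild-type. SPNCRNA.1421 was 8.23 times as abundant as the protein kinase gene ppk31. It had 1547 and 1317 normalised counts in delta4dus, against 1397 and 1386 in wild-type, and its groups overlapped. SPNCRNA.1690 was 7.94 times as abundant as cao2, a gene for an amine oxidase-like protein. SPNCRNA.1488, SPNCRNA.1421 and SPNCRNA.1690 each cover the start codon of the host, shown above.

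In each library the antisense RNAs were also measured against their hosts. The median antisense level was 10.9% and 9.52% of the host in delta4dus, against 8.05% and 8.02% in wild-type. Both delta4dus libraries were above both wild-type libraries, and the difference in the median log2 ratio was 0.34. The SD between replicates was 0.137 in delta4dus and 0.00348 in wild-type, but each SD rests on only 2 libraries. With 2 libraries against 2, an exact two-sided permutation test gave p = 0.333, the smallest value this design allows. The difference was 0.20 over antisense RNAs wholly inside the host, and 0.20 without those that overlap a second gene or another SPNCRNA gene. Over the 33 with a mean of at least 1 CPM it was -0.019, so it did not hold among the most abundant. Of these 33, 31 had a log2 fold change above 0. Taken within each of the 303 pairs fitted for both, the median difference between antisense and host log2 fold changes was smaller, at 0.19. Without SPNCRNA.514, the summed antisense counts were 58680 and 58460 in delta4dus, against 52160 and 51180 in wild-type, and did not overlap. With SPNCRNA.514 they were 85030 and 107000 in delta4dus, against 69030 and 98480 in wild-type, and overlapped. As a share of the hosts' sum, the counts without SPNCRNA.514 were 2.337% and 1.849% in delta4dus, against 2.155% and 1.856% in wild-type. In this share the genotypes overlapped. Antisense RNAs above their host numbered 42 and 40 in delta4dus, against 41 and 39 in wild-type.

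By host level, the median antisense percentage was 72.2% and 75.5% in delta4dus against 73.8% and 71.2% in wild-type for the lowest hosts, where the genotypes overlapped. It was 14.6% and 17.5% in delta4dus against 12.7% and 12.2% in wild-type for the lower-middle hosts. In the highest hosts it was 1.60% and 1.63% in delta4dus, against 1.46% and 1.10% in wild-type. In the lower-middle and highest hosts both delta4dus libraries were above both wild-type libraries. In the upper-middle hosts it was 6.07% and 5.79% in delta4dus, against 6.04% and 4.65% in wild-type, and the genotypes overlapped.

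**Figure D2:**
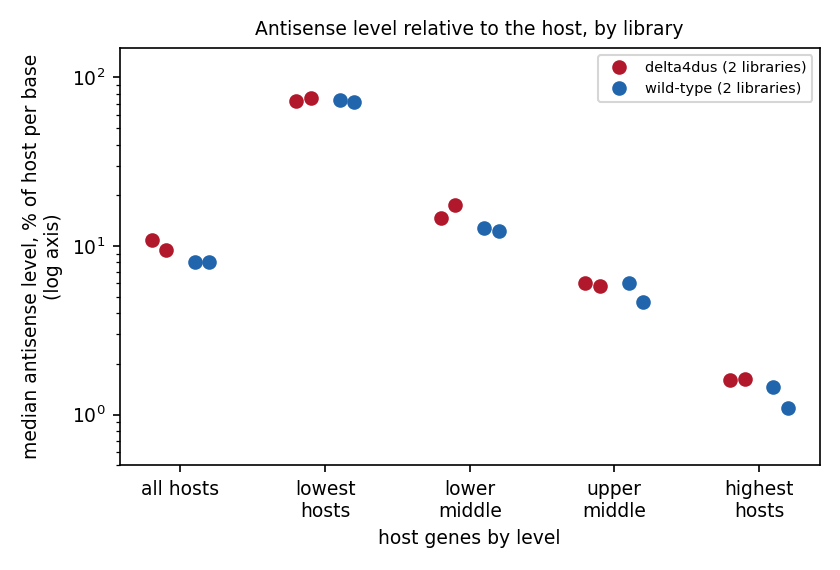
Each point is 1 library, red for delta4dus and blue for wild-type, and the y axis (log) gives the median antisense level as a percentage of the host per base, over all hosts and in 4 equal groups of pairs by host level. The percentage is 71.2% to 75.5% for the lowest hosts and 1.10% to 1.63% for the highest.

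A part of the reads opposite a very abundant gene can be sense reads assigned to the wrong strand. In the highest hosts, the 5th percentile of the antisense percentage was 0.124% and 0.0990% in delta4dus, against 0.0512% and 0.0639% in wild-type, so this floor was itself higher in both delta4dus libraries. When that share of the host's counts was taken off each antisense RNA, the median log2 difference over the 304 tested moved from 0.20 to 0.18, and in the highest hosts from 0.33 to 0.23. These differences are medians of log2 ratios of mean normalised counts. The floor marks the low end of the antisense signal there, and the source of these reads was not tested.

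The comparison of delta4dus with wild-type asked which antisense RNAs differed in level. No antisense RNA passed edgeR's quasi-likelihood test at an adjusted p under 0.05 (Benjamini-Hochberg over 6813 genes), among the 304 that passed the filter on low counts. Over all genes tested, 5 were called, which is 0.0734%, and these include the deleted genes dus1, dus2 and dus3. DESeq2 called 1 of the antisense RNAs, SPNCRNA.1206, and 0.802% of all genes. The authors' deposited table also has an adjusted p under 0.05 for SPNCRNA.1206 alone among the antisense RNAs, and for 0.716% of all its genes with an adjusted p. Of the 32 that did not pass the filter, none had more than 16 counts in any library, and 1 was at 0 in every library. Of the 304, 273 reached the cutoff in both libraries of both genotypes, 5 in both delta4dus but not both wild-type libraries, 23 in both wild-type but not both delta4dus libraries, and 3 in 1 library of each genotype.

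At an unadjusted p under 0.05, 28 antisense RNAs were higher in delta4dus (9.21% of 304) and 0 were lower, against 3.55% higher and 4.02% lower over all genes tested. Few lower values were also seen in other non-coding RNAs. Those partly inside an opposite-strand gene had 25 higher and 1 lower of 450, and intergenic ones had 9 higher and 0 lower of 319. Those overlapping a same-strand gene had 12 higher and 8 lower of 291. The groups did not overlap for 114 antisense RNAs that were higher in delta4dus (37.5%, against 19.0% of all genes) and for 18 that were lower (5.92%, against 19.7%).

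Small positive differences were spread across the antisense RNAs. The fitted log2 fold change was above 0 for 235 of the 304 (77.3%), against 50.0% of all genes, and its median was 0.19, a fold of 1.14. The 25th and 75th percentiles were 0.01 and 0.40. The median was -0.00 over all genes tested. Scaling by library totals alone shifted all genes together, and relative to that shift the median of the antisense RNAs was 0.18. Without the filter, 258 of 335 antisense RNAs were above 0, and the median over the 273 that reached the cutoff in both genotypes was 0.20. The median normalised count over all 336 was 88.0 and 84.5 in delta4dus, against 74.8 and 66.0 in wild-type. Both delta4dus libraries were above both wild-type libraries, and the exact two-sided permutation p was again 0.333.

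Each delta4dus library differed from each wild-type library in the same direction. The median log2 ratio over the antisense RNAs with any count was 0.18 for the first delta4dus library over the first wild-type library, 0.21 over the second, and 0.16 and 0.20 for the second delta4dus library over the first and second wild-type libraries. Between replicates the median was 0.015 in delta4dus (second over first) and -0.023 in wild-type. These ratios share libraries with each other. Intergenic non-coding RNAs gave medians of 0.06, 0.19, 0.00 and 0.05 in the same order of library pairs, and -0.11 and -0.13 between replicates.

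**Figure D3:**
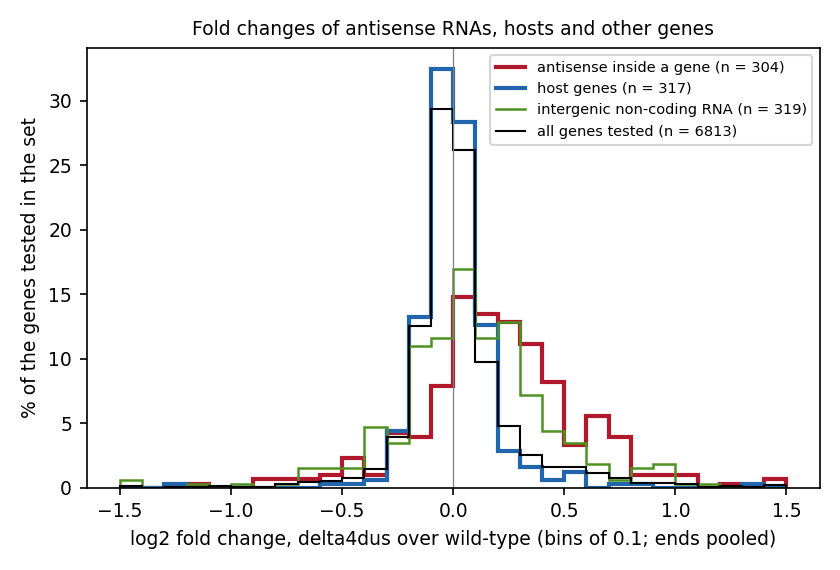
The lines show the percentage of tested genes in each bin of the log2 fold change of delta4dus over wild-type, for the antisense RNAs, their hosts, intergenic non-coding RNAs and all genes. The antisense RNAs are shifted to the right, with a median of 0.19 and 77.3% above 0. The hosts and all genes are centred near 0, and the intergenic RNAs have a median of 0.07.

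Other non-coding RNAs were set beside the antisense RNAs by position. RNAs partly inside an opposite-strand gene had a median log2 fold change of 0.09, with 302 of 450 above 0. Intergenic RNAs had a median of 0.07 (201 of 319 above 0), and RNAs overlapping a same-strand gene had a median of 0.00 (146 of 291). The difference between these classes and the antisense RNAs was not tested.

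The antisense RNAs are weakly counted, so their fold changes were set beside those of other genes of like abundance. In 4 bins of mean abundance, from lowest to highest, their medians were 0.25, 0.17, 0.19 and 0.15, against 0.06, 0.09, 0.06 and -0.01 for other genes. Among the 33 antisense RNAs with a mean of at least 1 CPM, 31 were above 0, 16 did not overlap between the groups and were higher in delta4dus, and none was lower without overlap. Of all 5192 genes at that level, 46.0% were above 0, 16.4% were higher without overlap and 22.5% lower.

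By host level, a split chosen with the data in view and whose differences were not tested, the median log2 fold change of the antisense RNAs was 0.10 in the lowest hosts (60 of 79 above 0), 0.21 in the lower-middle, 0.22 in the upper-middle and 0.30 in the highest hosts (59 of 73 above 0). The median of the hosts themselves was 0.09 in the lowest group and 0.00 in the highest. By position along the host, the median was 0.21 for RNAs that cover the start codon and 0.19 for those that do not, 0.22 for those that cover the stop codon and 0.18 for those that do not, and 0.15 for those opposite no coding sequence.

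Among the antisense RNAs, the smallest p was at nup211 (SPCC162.08c), a gene for a large nucleoporin of the nuclear pore. SPNCRNA.1206 (III, 1565774 to 1570757, minus strand) spans 4984 bases opposite nup211 and covers 87.0% of it. It had 471 and 419 normalised counts in delta4dus, against 279 and 243 in wild-type, so both delta4dus libraries were above both wild-type libraries. The log2 fold change was 0.77 (95% interval 0.40 to 1.14), and the unadjusted p was 0.00257. After edgeR's Benjamini-Hochberg adjustment p was 0.484, which did not pass. The authors' deposited table gives it a log2 fold change of 0.77 with an adjusted p of 0.0148, past 0.05. The host nup211 had 4652 and 4818 normalised counts in delta4dus and 4368 and 4782 in wild-type, with overlapping groups and a log2 fold change of 0.05.

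SPNCRNA.1690 (II, 4426298 to 4428764, plus strand) lies opposite cao2 (SPBC1289.16c). It had 1368 and 1508 normalised counts in delta4dus, against 1131 and 1181 in wild-type, and the groups did not overlap. Its log2 fold change was 0.31 (SE 0.0762, unadjusted p = 0.00753, edgeR adjusted p = 0.576), and it overlaps SPNCRNA.1691 on its own strand. The host had 171 and 185 normalised counts in delta4dus, against 211 and 130 in wild-type, with overlapping groups.

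SPNCRNA.1026 (I, 4814239 to 4817443, plus strand) lies opposite fus1 (SPAC20G4.02c), which encodes the formin that cells need to fuse during mating. It had 483 and 528 normalised counts in delta4dus, against 385 and 391 in wild-type. The groups did not overlap, and the log2 fold change was 0.38 (SE 0.118, edgeR adjusted p = 0.626). The sense RNA of fus1 had 1129 and 1171 normalised counts in delta4dus and 1146 and 1122 in wild-type, a log2 fold change of 0.02.

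SPNCRNA.1546 (II, 2750684 to 2754656, minus strand) lies opposite sfc3 (SPBC336.07), which encodes a subunit of TFIIIC, a factor needed to transcribe tRNA genes. It had 403 and 547 normalised counts in delta4dus, against 290 and 337 in wild-type, and its groups did not overlap. The log2 fold change was 0.60 (SE 0.191, edgeR adjusted p = 0.626), and that of sfc3 was -0.02. The other 3 antisense RNAs named by the same rule, all with groups that did not overlap, were SPNCRNA.1177 in the lysophospholipase gene nte1 (log2 fold change 0.28), SPNCRNA.837 in the esterase gene SPAC4A8.06c (0.37) and SPNCRNA.1264 in pku70 (0.49), the Ku subunit gene of DNA end joining. All 3 missed the threshold (edgeR adjusted p of 0.626 to 0.628).

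The weakly counted antisense RNA of tef103 (SPBC839.15c), a gene for the translation elongation factor EF-1 alpha, was chosen after its values were seen, as the case of an extremely abundant host. SPNCRNA.1376 had 163 and 147 normalised counts in delta4dus, against 75.8 and 96.6 in wild-type, at 0.0745% of the host's level per base. The groups did not overlap, and the log2 fold change was 0.85 (unadjusted p = 0.0101, edgeR adjusted p = 0.599). Its percentage of the host lies in the range of the floor given above, and fission yeast has near-identical copies of tef103, so its reads cannot be assigned with certainty.

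Host fold changes were centred near 0. The median host log2 fold change was -0.01, with 153 of 317 above 0, and no host was called by edgeR. At an unadjusted p under 0.05, 13 hosts were higher (4.1%, against 3.55% of all genes) and 8 were lower (2.52%, against 4.02%), both near the background. DESeq2 and the authors' deposited table each have 2 hosts past 0.05, cta3 and ept1, which is 0.635% of the hosts in DESeq2, against 0.802% of all genes. In 303 pairs with both fitted, the antisense RNA had the higher fold change in 217, and the median difference was 0.19. Both were above 0 in 116 pairs, the antisense RNA was above and the host below 0 in 119, the reverse held in 35, and both were below in 33. Spearman's correlation between the fold changes over these 303 pairs was -0.04, given as a description, since pairs share libraries.

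**Figure D4:**
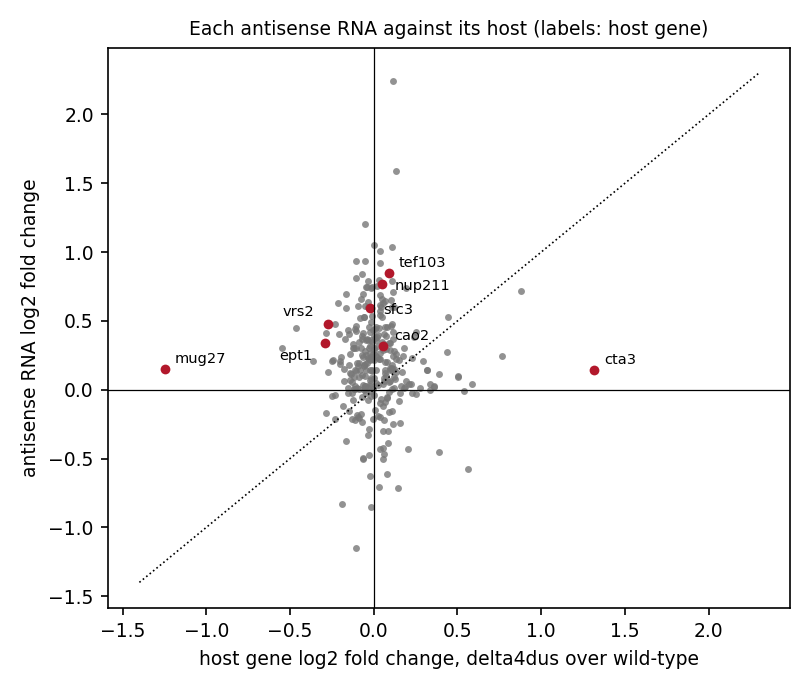
Each point is 1 of 303 pairs, with the host's log2 fold change of delta4dus over wild-type on the x axis and that of its antisense RNA on the y axis. The points form a vertical cloud that is mostly above 0 on the y axis and centred on 0 on the x axis. The labelled points are named in the text, and the dotted line marks equal fold changes.

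Some hosts had small p-values, and those called in the authors' deposited table are described first. The hosts named by p were picked among those whose groups did not overlap, so their separation is part of the choice. Of the 317 hosts tested, 23.0% were higher in delta4dus without overlap, against 19.0% of all genes. Another 20.8% were lower without overlap, against 19.7% of all genes. The gene cta3 (SPBC839.06) encodes a P-type ATPase that transports cations, and had 588 and 368 normalised counts in delta4dus, against 222 and 161 in wild-type. The groups did not overlap, and the log2 fold change was 1.32 (SE 0.293, unadjusted p = 0.00681, edgeR adjusted p = 0.561). The authors' deposited table gives cta3 a log2 fold change of 1.32 with an adjusted p of 0.0103. Its antisense RNA SPNCRNA.1374 was more abundant than cta3 per base, and had 971 and 1040 normalised counts in delta4dus, against 864 and 961 in wild-type, a log2 fold change of 0.14 with groups that did not overlap. The antisense RNA was 3.76 times the level of cta3 over the 4 libraries.

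The gene ept1 (SPAC22A12.10) encodes a phosphotransferase of phospholipid synthesis, and had 6569 and 6667 normalised counts in delta4dus, against 8312 and 7909 in wild-type. Both delta4dus libraries were below both wild-type libraries, with a log2 fold change of -0.29 (SE 0.0516, unadjusted p = 0.00173, edgeR adjusted p = 0.484), and the authors' deposited table gives -0.29 with an adjusted p of 0.0104. SPNCRNA.718 inside ept1 had 168 and 132 normalised counts in delta4dus, against 127 and 111 in wild-type. The groups did not overlap, and its log2 fold change of 0.34 had an unadjusted p of 0.177.

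The gene vrs2 (SPAC4A8.08c) encodes a valine tRNA ligase, and had 2053 and 2034 normalised counts in delta4dus, against 2451 and 2479 in wild-type. Its log2 fold change was -0.27 (SE 0.0542, unadjusted p = 0.00317), while that of SPNCRNA.838 opposite it was 0.48 (SE 0.125, unadjusted p = 0.0103). SPNCRNA.838 (I, 2558542 to 2561108, plus strand) had 413 and 429 normalised counts in delta4dus, against 307 and 297 in wild-type. In neither gene of this pair did the groups overlap, and neither passed the edgeR adjustment (0.499 for vrs2 and 0.599 for SPNCRNA.838).

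Other hosts named by p, none past the adjusted threshold, were cao1 (amine oxidase, log2 fold change 0.23, unadjusted p = 0.00536, smaller than that of cta3), SPBC24C6.09c (a phosphoketolase family gene, 0.54) and guf1 (a GTPase of mitochondrial translation in budding yeast, 0.32), all higher in delta4dus without overlap. SPBC800.12c (a ubiquitin family gene, -0.29) and utp16 (a protein of the U3 snoRNP, -0.20) were lower in delta4dus without overlap. Their antisense RNAs were fitted at -0.03 for SPNCRNA.528 in cao1, -0.01 for SPNCRNA.1505, 0.14 for both SPNCRNA.564 and SPNCRNA.1037 in guf1, which overlap on 1 strand and may hold the same reads, 0.41 for SPNCRNA.1335 and 0.19 for SPNCRNA.575. The antisense RNAs of SPBC24C6.09c and guf1 were more abundant per base than their hosts, at 5.67 times for SPNCRNA.1505 and 3.71 times for SPNCRNA.564, with the same uncertainty.

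**Figure D5:**
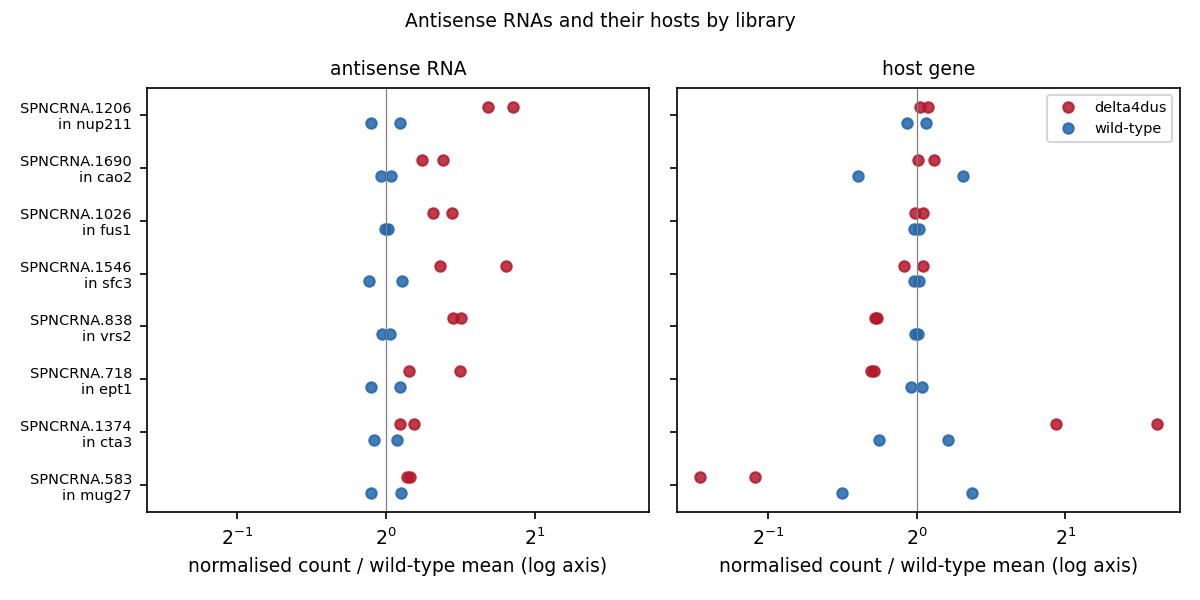
Each point is 1 library, with its normalised count divided by the wild-type mean of that gene on a log axis, for 8 antisense RNAs (left panel) and their hosts (right panel). Delta4dus libraries are red and drawn above wild-type libraries, in blue. All 8 antisense RNAs shown separate by genotype, with delta4dus higher, but they are a selection from the named RNAs. Named RNAs that are not drawn, such as SPNCRNA.514, SPNCRNA.74 and SPNCRNA.1421, overlapped between the genotypes. The RNAs in cao2, fus1 and sfc3 were named by a rule that asks for this separation and a mean of at least 1 CPM. At that level, 48.5% of 33 antisense RNAs and 16.4% of all genes were higher without overlap. Over all levels, 37.5% of the antisense RNAs and 19.0% of all genes tested were. The hosts overlap for nup211, cao2, fus1 and sfc3, are lower in delta4dus for vrs2, ept1 and mug27, and are higher for cta3. The genes vrs2, ept1 and cta3 are among hosts named by a rule that asks for groups without overlap. Of the hosts tested, 23.0% were higher and 20.8% lower in this way.

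Genes that act in mating and meiosis were examined as hosts, since antisense RNA is known at many of them. The list also took in every gene whose symbol starts with mug, named for being up-regulated in meiosis. Membership of the list therefore does not mean that a gene acts only in meiosis. Of the 156 genes in that list, 21 were hosts, of 24 antisense RNAs. Those RNAs had a median level of 55.5% of the host per base, against 8.24% for RNAs in other hosts. The hosts of the list were themselves low, at a median of 137 reads per kb against 801 for other hosts, and the RNAs had medians of 111 and 66.2 reads per kb. For the lowest of the 4 host groups above, with a median host of 168 reads per kb, the median antisense level was 71.2% to 75.5% per library. That group was chosen by host level, the denominator of the percentage, and genes of the list were not taken out of it. Whether the ratio is particular to genes of this list was not tested. The antisense RNA was above its host in 8 of 24 against 32 of 312.

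In rec7, a gene for a meiotic recombination protein, SPNCRNA.131 was at 16.0 times the level of the host. It had 340 and 264 normalised counts in delta4dus, against 359 and 268 in wild-type, with overlapping groups, and it overlaps 2 other non-coding RNAs on its own strand. In mcp3, a gene of a meiotic coiled-coil protein, SPNCRNA.1044 had 760 and 780 normalised counts in delta4dus, against 657 and 723 in wild-type, at 2.34 times the host. Lower relative levels were found for SPNCRNA.1452 in mug124 (95.2% of the host), SPNCRNA.1109 in mug135 (53.9%) and SPNCRNA.669 in mug161 (16.6%), and in ASM294v3 only 11.9% of SPNCRNA.669 lies inside mug161.

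None of the meiosis and mating list was called by edgeR. Of the 156 genes, 146 were tested, with 4 higher (2.74%, against 3.55% of all genes) and 7 lower (4.79%, against 4.02%) at an unadjusted p under 0.05, both near the background. Their median log2 fold change was -0.02. Their summed normalised counts were 154600 and 156600 in delta4dus, against 160700 and 162400 in wild-type. In hosts of this list the antisense RNAs had a median log2 fold change of 0.10 (15 of 21 tested above 0), and in other hosts 0.20 (220 of 283).

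The list of 36 factors that act on antisense RNA, heterochromatin or transcript removal had all 36 genes measured and tested. Their median log2 fold change was -0.00, the range was -0.21 to 0.14, and none was called by edgeR. At an unadjusted p under 0.05, rdp1, the RNA-dependent RNA polymerase of RNA interference, was higher (0.13). The heterochromatin protein gene swi6 (-0.20), the RNA-binding export factor gene mlo3 (-0.18) and mmi1 (-0.21), whose product removes meiotic transcripts, were lower. Hence 4 of 36 passed at that level, against 7.57% of all genes. The part of these genes in the antisense differences was not tested.

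Antisense RNAs also lie near the deleted loci. SPNCRNA.1411 in cyp3, a cyclophilin gene, had a log2 fold change of 0.14, and SPNCRNA.1412 in erg27, a sterol synthesis gene, had -0.06. Both lie within 5 kb of dus2. SPNCRNA.1411 had 61.2 and 73.4 normalised counts in delta4dus, against 65.6 and 56.2 in wild-type.

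The antisense RNAs nearest to the 90% limit were also examined. SPNCRNA.1639 in hip3 and SPNCRNA.797 in gih35 were just inside, at 90% each. SPNCRNA.1639 had 177 and 125 raw counts in delta4dus and 89 and 88 in wild-type, and SPNCRNA.797 had 462 and 277 in delta4dus and 310 and 262 in wild-type. Just outside were SPNCRNA.744 in utp14 at 89.8% and SPNCRNA.1539 in prp1 at 89.83%, with 21 to 35 and 11 to 45 raw counts over the 4 libraries.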

How the data were processed

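Raw read counts per gene for 7049 genes in 4 libraries came from the table deposited by the authors. Per the submitters' processing notes, Trimmomatic 0.36, TopHat2, featureCounts and the ASM294v2 build were used. How featureCounts treated strand and overlapping features is not given in the sources, and reads may be counted more than once. The authors' deposited table gives a mean normalised signal, a log2 fold change, a test score and p-values (DESeq2 per the submitters' processing notes).

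Counts were fitted with edgeR 4.0.16 in R 4.3.3 (filterByExpr defaults, TMM scaling, robust quasi-likelihood, both genotypes, 2 residual degrees of freedom, two-sided), with Benjamini-Hochberg adjustment over all 6813 genes tested and calls under 0.05. Rows of the antisense RNAs and hosts were read from that fit. DESeq2 1.42.0 was an alternative. Levels per kb use the span from Start to End. Library-pair ratios added 0.5 to counts. The members, gene lists and the rule for named genes were chosen with earlier results of these data known. Symbols and sequences were matched by identifier to RefSeq ASM294v3, and coordinates were not converted. Named antisense RNAs and hosts are, without overlap between groups, up to 6 RNAs with the smallest p and a mean of at least 1 CPM, and up to 4 hosts per direction. The 6 highest by level or by ratio to the host, those within 5 kb of a dus gene, those of meiosis genes and those called in the authors' deposited table complete the rule. Another SPNCRNA gene is not reported here. Reads carry no molecular identifiers.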

Additional observations from a re-analysis of the deposited data

How the results depend on the processing

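The count of antisense RNAs called stayed at 0 under other scalings, other filters, without ribosomal RNA genes, without any 1 library and for the RNAs wholly inside or free of second genes. DESeq2 called 1 antisense RNA, 2 hosts and 52 of all genes. With the replicate number as a block (replicate block, numbers not stated to mark pairs), 31 antisense RNAs, 31 hosts and 825 of all genes were called, and all 31 antisense RNAs were higher. They include SPNCRNA.1206 (block adjusted p = 5.08e-06, edgeR) and the 6 RNAs named by p, SPNCRNA.1690, SPNCRNA.1026, SPNCRNA.1546, SPNCRNA.1177, SPNCRNA.837 and SPNCRNA.1264, with adjusted p of 0.000249 to 0.0348. That is 10.2% of the antisense RNAs, against 12.1% of all genes in either direction and 6.34% higher. The correlation of the deviations of same-numbered libraries was 0.635. Leaving out 1 library left 3 to 5 of all genes called.

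The median log2 fold change of the antisense RNAs was 0.157 at a mean of at least 1 CPM, 0.214 without second genes or other SPNCRNA genes on the strand, and 0.176 to 0.237 without 1 library. It was 0.102 and 0.302 in the lowest and highest of 4 equal groups of hosts by level, alternatives chosen after seeing the data. The hosts' median was -0.0035 with library totals alone, 0.0029 at 1 CPM and -0.014 to 0.0062 without 1 library. Library totals alone moved the median of all genes by -0.42 on the log2 scale, and values are given relative to that. The median log2 ratio to the host, -3.47, was -3.72 for RNAs wholly inside, -3.68 without second genes and 1.08 at 1 CPM. Without 1 library it was -3.56 to -3.41. The difference between genotypes, 0.342, was 0.196, 0.198 and -0.019 under the same alternatives, and 0.245 to 0.439 without 1 library.

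Among 60 named genes and 639 values, 577 kept direction and side of the threshold, 40 turned sign, and 22 became called, 3 of them with DESeq2 and 19 with the replicate block. Turned signs were SPNCRNA.1452 (0.041) and SPBC1709.04c (0.0197) with library totals, SPNCRNA.1505 (0.0054) and SPBC1709.04c (0.0027) at 1 CPM, and SPNCRNA.528 (0.106) with the block. Without 1 library, the range of log2 fold changes was -0.011 to 0.317 for SPNCRNA.1037, -0.474 to 0.047 for SPNCRNA.1109, -0.254 to 0.176 for SPNCRNA.131, -0.201 to 0.082 for SPNCRNA.1412, -0.083 to 0.154 for SPNCRNA.1421, -0.508 to 0.307 for SPNCRNA.1452, -0.068 to 0.050 for SPNCRNA.1505, -0.337 to 1.15 for SPNCRNA.514, -0.910 to 2.04 for SPNCRNA.528, -0.023 to 0.328 for SPNCRNA.564, -0.229 to 0.452 for SPNCRNA.575, -0.031 to 0.164 for SPNCRNA.669, -0.059 to 0.098 for SPNCRNA.73 and -0.0046 to 0.062 for SPNCRNA.74. Among hosts it was -0.0058 to 0.043 for fus1 (SPAC20G4.02c), -0.014 to 0.117 for nup211 (SPCC162.08c), -0.037 to 0.0058 for pku70 (SPCC126.02c), -0.208 to 0.094 for rec7 (SPCC1753.03c), -0.154 to 0.116 for cyp3 (SPBC1709.04c), -0.012 to 0.176 for erg27 (SPBC1709.07), -0.083 to 0.039 for sfc3 (SPBC336.07), -0.247 to 0.456 for cao2 (SPBC1289.16c) and -0.066 to 0.021 for mug161 (SPAC1F3.09). The cause was not tested. With 2 libraries per genotype, the spread between libraries limits what can be called.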
